A study of Mus musculus with 4 samples.

Results

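Claudins are the membrane proteins that seal and tune tight junctions, and which claudin a nephron segment makes sets which ions pass between its cells. Here 10 claudin genes (*Cldn1*, *Cldn2*, *Cldn3*, *Cldn4*, *Cldn5*, *Cldn7*, *Cldn8*, *Cldn10*, *Cldn16* and *Cldn19*) were taken by name, of 19609 genes listed for single nuclei of mouse kidney cortex. Each was read in 23 clusters of nuclei from 4 male mice of mixed background, 1 mouse for each condition. The control mice carried the TRE-hKLF6 transgene alone. The hKLF6 OE mice carried CAG-rtTA and TRE-hKLF6, which drives human KLF6, a zinc finger transcription factor, in every tissue and not in tubules alone. All 4 mice ate doxycycline food for 1 week. In each genotype 1 mouse had no AAI (its label gives no treatment, and the study's methods name DMSO alone as the vehicle) and is called the vehicle mouse. The other had received 1 injection of aristolochic acid I (AAI, 2 mg/kg), a plant toxin that damages the DNA of proximal tubule (PT) cells, 24 hours before its kidney was taken.

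Values are the mean normalised expression of a gene over the nuclei of a cluster in 1 mouse, on a scale of 10000 counts per nucleus. With 1 mouse in each condition there is no replicate check, and no p-value can be given. A mean ± SD over the 4 mice spans the 4 conditions. A difference is given as a difference of log2(value + 1), which understates changes of low genes, and was called when it reached 0.2 and the larger value was at least 0.5. The transgene is human and its transcript has no row of its own. Mouse *Klf6* averaged 0.215 in the 5 normal PT clusters of the control mouse, 0.406 with AAI, 0.137 in the hKLF6 OE mouse and 0.327 in the hKLF6 OE mouse with AAI, which says nothing of the transgene. The number of nuclei behind a value is unknown, and 6 clusters had over 50% of genes at 0 in at least 1 mouse: InjuredPT-A, InjuredPT-B, IC-B-2, Macrophage, LH-DL and LH-AL-3. Most names matched their markers: all 5 podocyte, all 5 PT-S3, all 5 injured PT and all 5 LH-AL (ascending limb of the loop of Henle) genes checked were highest in a cluster so named. The PT-S3 genes were all highest in PT-S3-2, at sums of 71.2 to 89.5 beside 26.4 to 39.8 for the PT-S1-S2 markers. In PT-S3-1 the PT-S3 genes summed to 4.44 to 22.1 and the PT-S1-S2 markers to 65.8 to 95.8. The LH-AL genes were all highest in LH-AL-1 or LH-AL-2, and summed to between 128 and 188 in LH-AL-3. Of the injured PT genes, *Lcn2* was highest in InjuredPT-A at only 0.0283, against 0.0272 in IC-B-2. The PT-S1-S2 list had 3 of its 5 genes highest in a cluster of its name and the mesangial list (MC) 2 of 5. EC-1, labelled endothelial, held a summed level of the 5 PT-S1-S2 markers of 58.0 to 80.0 against 8.21 to 10.1 for the 5 endothelial markers. In LH-DL, labelled descending limb, all 5 of its own markers were highest of all clusters, at sums of 10.3 to 21.2. The 3 parietal epithelial markers were highest there too, at 4.60 to 22.6, and the 5 podocyte markers summed to between 1.67 and 15.6.

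In the textbook nephron *Cldn2* forms the cation and water pore of the proximal tubule, and *Cldn10* is made in an anion-selective form in the proximal tubule and a sodium-selective form in the thick ascending limb. *Cldn16* and *Cldn19* together form the limb's pathway for calcium and magnesium, and mutations in either cause renal loss of magnesium. *Cldn3*, *Cldn4*, *Cldn7* and *Cldn8* belong to the distal nephron and collecting duct, *Cldn1* to the parietal epithelium of Bowman's capsule, and *Cldn5* to endothelium and podocytes.

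The upstream sequences of the 5 claudins whose mean over the mice reached 0.5 in a cluster are shown, since they carry the patterns described next. They were copied from RefSeq (GRCm38.p6), which gave 12 start sites for 9 of the 10 genes, and are printed 5′ to 3′ on the gene's strand up to the first annotated exon. Capitals mark 3 motifs searched on both strands of the 250 bases before a start: the HNF1 half-site GTTAAT (in 6.43% of 32851 promoters of this length), the GC box GGGCGG bound by KLF and Sp factors (32.7%) and the TATA box TATAAA (12.4%).
Cldn10, chr14:118787621-118787870, + strand: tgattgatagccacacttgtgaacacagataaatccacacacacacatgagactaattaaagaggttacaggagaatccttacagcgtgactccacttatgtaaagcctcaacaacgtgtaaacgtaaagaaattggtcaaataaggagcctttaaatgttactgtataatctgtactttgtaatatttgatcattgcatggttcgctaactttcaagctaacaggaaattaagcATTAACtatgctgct
Cldn2, chrX:139800558-139800807, + strand: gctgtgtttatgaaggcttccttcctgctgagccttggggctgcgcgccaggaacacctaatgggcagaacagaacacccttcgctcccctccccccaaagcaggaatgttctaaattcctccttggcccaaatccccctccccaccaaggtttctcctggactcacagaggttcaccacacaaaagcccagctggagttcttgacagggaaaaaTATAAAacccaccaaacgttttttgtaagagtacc
Cldn16, chr16:26462885-26463134, + strand: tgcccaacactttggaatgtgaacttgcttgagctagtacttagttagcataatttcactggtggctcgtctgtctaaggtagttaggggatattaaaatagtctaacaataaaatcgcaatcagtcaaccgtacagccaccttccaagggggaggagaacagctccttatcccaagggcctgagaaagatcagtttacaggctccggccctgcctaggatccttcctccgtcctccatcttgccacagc
Cldn19, chr4:119255191-119255413, + strand: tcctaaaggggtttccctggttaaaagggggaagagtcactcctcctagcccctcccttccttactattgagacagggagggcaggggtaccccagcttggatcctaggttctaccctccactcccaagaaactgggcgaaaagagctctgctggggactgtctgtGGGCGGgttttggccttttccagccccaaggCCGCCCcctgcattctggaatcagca
Cldn5, chr16:18776597-18776846, + strand: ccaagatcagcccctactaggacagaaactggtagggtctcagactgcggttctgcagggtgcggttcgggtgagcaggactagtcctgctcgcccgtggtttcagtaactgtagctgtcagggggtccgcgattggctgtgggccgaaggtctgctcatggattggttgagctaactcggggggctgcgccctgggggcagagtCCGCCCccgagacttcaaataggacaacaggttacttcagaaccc

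The *Cldn10* window held 1 HNF1 half-site, 15 bases before the start on the other strand. *Cldn10* has a second start 67079 bases downstream, at position 118854950, whose 250 bases held 3 GC boxes and no half-site. The gene's row adds both start sites together, so the proximal and limb forms cannot be told apart here. *Cldn2* had a TATA box 35 bases before its start. *Cldn19* had 2 GC boxes, *Cldn5* had 1, and *Cldn16* had a match to none of the 3 motifs. A match is a string of letters and not a bound site.

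The genes differ greatly in length, and reads from introns count in nuclei. *Cldn10* (chromosome 14, 118787908 to 118875489, GRCm38) spans 87.6 kb, *Cldn16* (chromosome 16, 26463135 to 26482765) 19.6 kb and *Cldn5* (chromosome 16, 18776847 to 18778262) 1.42 kb. *Cldn3*, *Cldn4*, *Cldn5* and *Cldn8* are each annotated with 1 exon. Per kb of gene span, the mean level in the highest cluster was 0.0505 for *Cldn10*, 0.0907 for *Cldn16*, 0.111 for *Cldn19*, 0.123 for *Cldn2* and 0.681 for *Cldn5*, so the order of the genes on this scale was not that of their raw levels. An antisense gene overlaps *Cldn19* and another overlaps *Cldn3*, and the strand setting of the counting is not given in the sources used here.

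Of the 10 genes, 3 had the same highest cluster in all 4 mice: *Cldn5* in Podocytes, and *Cldn16* and *Cldn19* in LH-AL-2. The share of all genes with such agreement is not given here, so 3 of 10 cannot be called many or few. The clusters were also made from the same nuclei. *Cldn10* was the most widely listed. It reached 0.5 in 75 of the 92 columns of cluster and mouse and was at 0 in 1. *Cldn2* reached 0.5 in 49 columns, *Cldn19* in 7, *Cldn16* in 6 and *Cldn5* in 4. *Cldn3* and *Cldn4* never reached 0.5, *Cldn7* did in 1 column, *Cldn1* in 2 and *Cldn8* in 3.

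**Figure D1:**
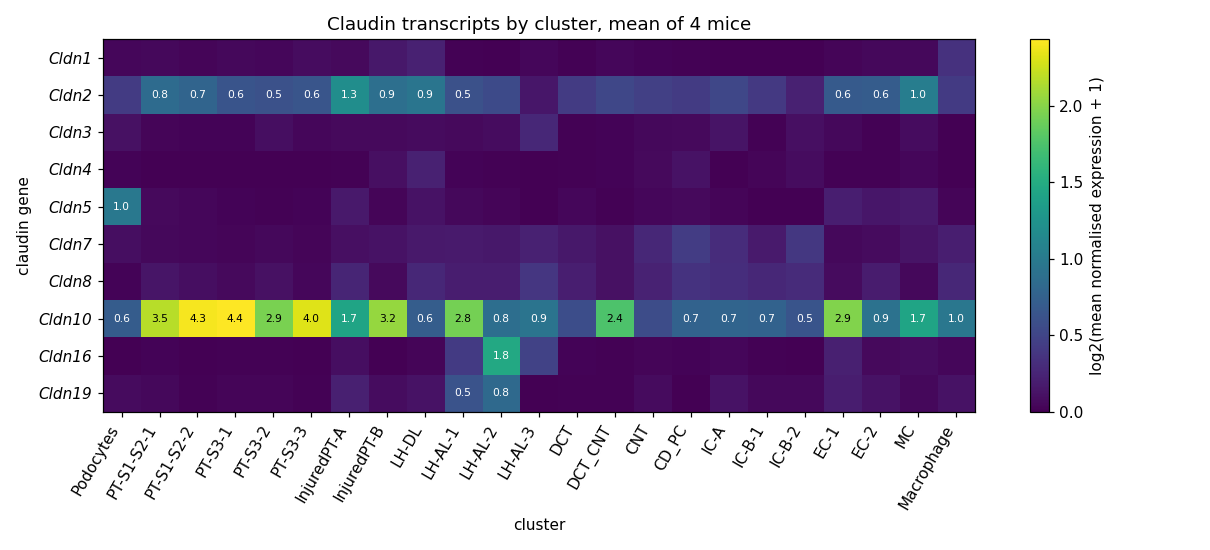
Mean level of 10 claudin genes (rows) in 23 clusters (columns), as the mean of 4 mice on a log2(value + 1) colour scale with means of at least 0.5 written in. *Cldn10* fills the proximal tubule clusters, *Cldn5* stands in Podocytes, and *Cldn16* and *Cldn19* stand in the ascending limb.

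*Cldn10* was highest along the proximal tubule. In PT-S3-1 its level was 4.78 in the control mouse, 4.36 in the control mouse with AAI, 3.95 in the hKLF6 OE mouse and 4.60 in the hKLF6 OE mouse with AAI, a mean of 4.42 ± 0.36 (SD, n = 4). PT-S1-S2-2 followed at 4.31 ± 0.37, PT-S3-3 at 4.00 ± 0.48 and PT-S1-S2-1 at 3.52 ± 0.14. The ranges of neighbours in this order overlapped. PT-S3-2 was the lowest normal PT cluster at 2.86 ± 0.09, with 2.94, 2.74, 2.83 and 2.91 in the 4 mice in the same order. It was the only normal PT cluster whose summed PT-S3 markers exceeded its PT-S1-S2 markers in every mouse. Its highest mouse lay under the lowest value of each of the other 4 normal PT clusters, the nearest being 3.39 in PT-S1-S2-1.

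Outside the proximal tubule *Cldn10* was at 2.80 ± 0.40 in LH-AL-1 and 2.37 ± 0.48 in DCT_CNT. The PT-S1-S2 markers summed to between 50.4 and 69.7 in DCT_CNT, against 9.70 to 15.3 in DCT, and their part in the DCT_CNT value was not tested. *Cldn10* fell to 0.494 ± 0.173 in DCT (distal convoluted tubule) and 0.482 ± 0.263 in CNT (connecting tubule), the lowest means of the 23. EC-1 also gave 2.93 ± 0.49. That cluster held PT markers as stated above, and the 5 LH-AL markers at sums of 56.3 to 64.4. The part of either list in the EC-1 value was not tested.

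*Cldn2* was spread more evenly. In PT-S1-S2-1 it was 1.07 in the control mouse, 0.624 with AAI, 0.767 in the hKLF6 OE mouse and 0.754 in the hKLF6 OE mouse with AAI. The mean of the PT-S1-S2 clusters was 0.763 ± 0.114 and that of the 3 clusters named PT-S3 0.543 ± 0.080. The S1-S2 value was the higher in each mouse, though PT-S3-1 held more of the PT-S1-S2 than of the PT-S3 markers. The highest mean, 1.30 ± 0.64 in InjuredPT-A, rested on 2.12 and 1.47 in the vehicle control and hKLF6 OE mice, against 0.741 and 0.842 with AAI. In the vehicle control mouse 62.6% of genes were at 0 in this cluster. LH-DL was at 0.935 ± 0.626, with 1.57 in the control mouse and 0.0864 in the control mouse with AAI, so its place in the order is not fixed. The cluster MC gave 1.05 ± 0.21, beside a summed level of the PT-S1-S2 markers of 36.6 to 45.4 in that cluster, whose part was not tested. Every pair of neighbours in the order of *Cldn2* levels overlapped.

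**Figure D2:**
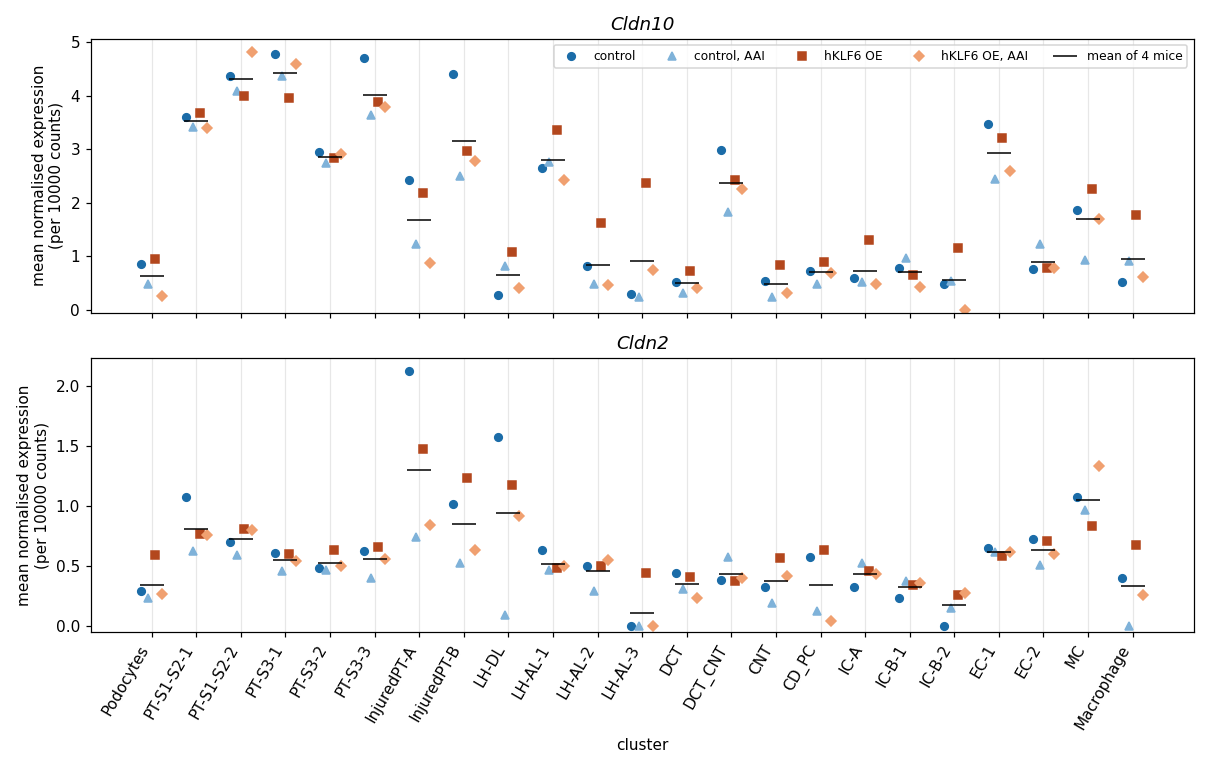
Level of *Cldn10* (top) and *Cldn2* (bottom) in each cluster, with 1 point per mouse and a bar at the mean of 4 mice, on a linear scale per 10000 counts. *Cldn10* lies between 2.74 and 4.82 in the normal PT clusters and the vehicle hKLF6 OE mouse is often the highest elsewhere, while *Cldn2* has no segment where it stands apart.

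The ascending limb clusters divided the claudins. *Cldn10* was 2.65, 2.76, 3.35 and 2.42 in LH-AL-1 of the control, control with AAI, hKLF6 OE and hKLF6 OE with AAI mice, and 0.813, 0.479, 1.61 and 0.460 in LH-AL-2. It was thus lower in LH-AL-2 in 4 of 4 mice, by 0.74 to 1.35 on the log2 scale. *Cldn16* showed the opposite order, at 0.352, 0.458, 0.0435 and 0.487 in LH-AL-1 and 1.27, 2.25, 0.830 and 2.76 in LH-AL-2, a difference of 0.75 to 1.34 in the other direction. No value of *Cldn16* in any other cluster passed 0.597, so the LH-AL-2 values stood apart from every other cluster.

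*Cldn19* was 0.501, 0.617, 0.498 and 0.563 in LH-AL-1 and 0.703, 0.901, 0.516 and 1.01 in LH-AL-2, where it was higher by 0.02 to 0.36 and passed the threshold in 2 of 4 mice. The ranges of the *Cldn19* levels overlapped between these clusters. Of 3506 genes that reached 0.5 in either cluster in every mouse, 2.51% were higher in LH-AL-2 in all 4 mice and 2.74% were lower. No other gene of the 10 passed the threshold in any mouse. These clusters were drawn from the same nuclei, so the contrast describes them and is no test.

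The markers of the limb also differed between these clusters. *Slc12a1*, the sodium-potassium-chloride cotransporter, was at 206 ± 9 in LH-AL-1 and 156 ± 8 in LH-AL-2, lower by 0.34 to 0.48 on the log2 scale. *Egf*, epidermal growth factor, was at 93.8 ± 24.3 and 132 ± 25, higher by 0.27 to 0.77, which in the hKLF6 OE mouse was as large as the difference of *Cldn10*. *Umod*, uromodulin, was at 37.0 ± 4.7 and 37.5 ± 1.2. LH-AL-3, in which over 60.5% of genes were at 0 in each mouse, listed *Cldn19* at 0 in all 4 mice and *Cldn16* at 0.397 ± 0.275. Its *Cldn10* level was 2.37 in the hKLF6 OE mouse and 0.235 to 0.749 in the other mice.

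**Figure D3:**
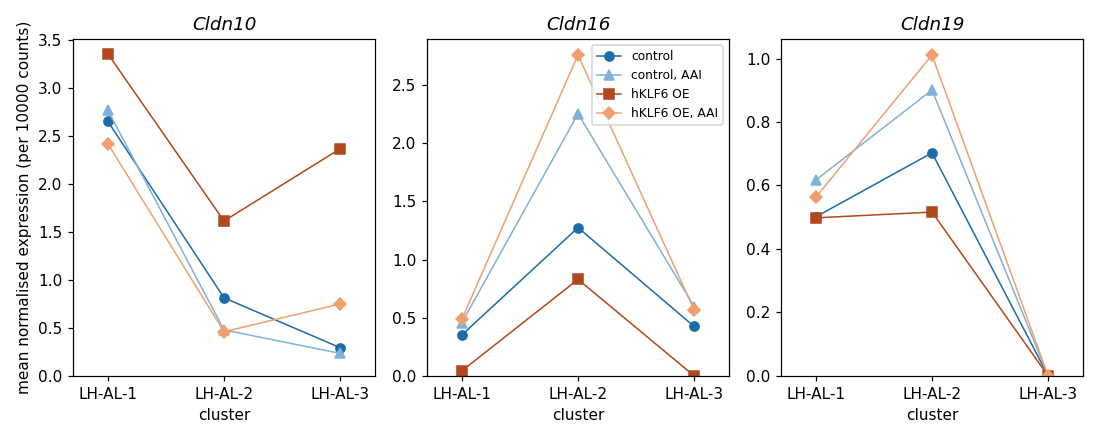
Level of *Cldn10*, *Cldn16* and *Cldn19* in the 3 ascending limb clusters, with 1 line per mouse on linear axes that start at 0. *Cldn10* is lower in LH-AL-2 than LH-AL-1 and *Cldn16* is higher in every mouse, and the AAI mice are the 2 highest for *Cldn16* in LH-AL-2.

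Both vehicle mice had less *Cldn16* in LH-AL-2 than either AAI mouse. The difference between AAI and none was 0.52 in the control mice and 1.04 in the hKLF6 OE mice. *Cldn19* moved by 0.16 and 0.41, the first below the threshold. *Cldn10* went the other way in the same cluster, by -0.29 and -0.84, and the order of the 4 mice for *Cldn10* was the exact reverse of that for *Cldn16*. In LH-AL-2 as a whole 22.2% of tested genes were called higher with AAI in the control mice and 26.3% in the hKLF6 OE mice. Called lower were 21.9% and 23.8%, so calls of both kinds were common. Of the limb markers, *Slc12a1* moved by 0.10 and -0.09 and *Umod* by 0.07 and 0.08, all below the threshold. *Egf* moved by -0.31 and 0.29, past the threshold in opposite directions.

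*Cldn5* marked podocytes. Its level there was 0.998 in the control mouse, 1.08 with AAI, 1.20 in the hKLF6 OE mouse and 0.572 in the hKLF6 OE mouse with AAI, a mean of 0.964 ± 0.274 that was 6.43 times the next mean (EC-1, 0.150 ± 0.051). No value elsewhere passed 0.378, so the podocyte cluster did not overlap with any other. The endothelial cluster EC-2 gave 0.110. The AAI-treated hKLF6 OE mouse was lower than the vehicle one by 0.49 and lower than the AAI-treated control by 0.41. In Podocytes 33.6% of tested genes were called lower in the first of these comparisons and 25.7% in the second.

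The remaining genes were sparse, and none could be placed in 1 cluster beyond the spread of the mice. In CD_PC *Cldn7* was at least 0.275 and *Cldn8* at least 0.192 in each mouse. Their values in the normal PT clusters were at most 0.102 and 0.121, and all of these lie under the minimum of 0.5. *Cldn7* had its highest mean in CD_PC (principal cells of the collecting duct), at 0.314, 0.329, 0.275 and 0.498 in the 4 mice, followed by IC-B-2 at 0.319 ± 0.252 and IC-A at 0.241 ± 0.154. *Cldn8* was at 0.308 ± 0.149 in LH-AL-3, 0.280 ± 0.080 in CD_PC, 0.251 ± 0.061 in IC-A and 0.177 ± 0.004 in CNT. The lowest mean of *Cldn8* was 0.0156, in Podocytes, and that of *Cldn7* was 0.0206, in PT-S3-3. *Cldn4* was at 0 in 51 of 92 columns and reached 0.493 in LH-DL of the hKLF6 OE mouse, with CD_PC next at 0.0867 ± 0.0904. *Cldn3* had its highest mean in LH-AL-3, 0.209 ± 0.212, with the hKLF6 OE mouse highest, followed by IC-A at 0.0938 ± 0.0722 and Podocytes at 0.0758 ± 0.131. *Cldn1* reached 0.944 in Macrophage of the control mouse with AAI and 0.672 in LH-DL of the hKLF6 OE mouse with AAI, and was at 0.108 or less in Macrophage and at 0 in LH-DL of the other 3 mice. Each of these high values came from 1 mouse in a cluster with over 50% of genes at 0 in at least 1 mouse.

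Injured proximal tubule clusters had less *Cldn10*. In the control mouse with AAI the mean of the 5 normal PT clusters was 3.65, InjuredPT-A was at 1.24 and InjuredPT-B at 2.49. In the hKLF6 OE mouse with AAI these were 3.90, 0.879 and 2.78. Both injured clusters lay below every normal PT cluster of the same mouse, the lowest of which was PT-S3-2 at 2.74 and 2.91. InjuredPT-B lay below PT-S3-2 by less than the threshold in both mice. The difference from normal PT was -1.06 and -1.38 in InjuredPT-A and -0.41 and -0.38 in InjuredPT-B, so InjuredPT-A was the lower of the injured clusters in both mice.

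*Cldn2* did not follow. It was 0.507 in normal PT, 0.741 in InjuredPT-A and 0.526 in InjuredPT-B of the control mouse with AAI, and 0.630, 0.842 and 0.632 in the hKLF6 OE mouse with AAI. The differences in InjuredPT-A, 0.21 and 0.18, lay on each side of the threshold, and those in InjuredPT-B were 0.02 and 0.00. Of the 10 claudins, 2 had a level that could be compared in either injured cluster, and 1, *Cldn10*, was called. Over all genes 43.3% were called higher and 27% lower in both AAI mice in InjuredPT-A, and 23.4% and 13.1% in InjuredPT-B. *Cldn1* stayed under 0.5 but was 0.0398 and 0.0410 in normal PT against 0.137 and 0.276 in InjuredPT-B. *Cldn3*, *Cldn4*, *Cldn5*, *Cldn7*, *Cldn8*, *Cldn16* and *Cldn19* were at 0.125 or less in both injured clusters of the AAI mice.

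Other tight junction genes give the setting. Of a list of 45 tight junction genes, 41 were in the table and 20 could be compared in InjuredPT-A, where 8 were called higher and 8 lower. The list's median change there was 0.00 for the AAI-treated control and -0.16 for the AAI-treated hKLF6 OE animal, beside 0.19 and 0.15 over all genes. Ranked by the smaller change of the 2 mice, *F11r*, encoding the adhesion molecule JAM-A, had the largest rise, from 0.317 to 1.47 and from 0.368 to 1.31. On the same rank *Patj*, a scaffold of the Crumbs polarity complex, had the largest fall, from 5.05 to 1.35 and from 5.35 to 1.50, although *Magi2* fell further in the control mouse, from 9.77 to 2.84. *Cldn12*, *Ocln* (occludin), *Marveld2* (tricellulin), *Tjp1* (ZO-1), *Lsr*, *Pard6b* and *Ybx3* were also called higher. *Magi1*, *Magi2*, *Magi3*, *Pard3*, *Cgnl1*, *Ildr2* and *Amot* were also called lower.

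In InjuredPT-B 18 of the list could be compared, of which 5 were higher and 3 lower, with medians of 0.16 and 0.11 beside 0.11 and 0.10 over all genes. By the smaller change *Magi2*, a scaffold protein, had the largest fall, from 9.77 to 3.09 and from 8.69 to 4.53. *Ocln*, *Marveld2* and *Lsr* were called higher and *Magi1*, *Magi2* and *Patj* lower in both injured clusters. Gene length moved with these calls. In InjuredPT-A the median span was 24.5 kb for the 8 genes called higher and 265 kb for the 8 called lower, beside 20.0 kb and 119 kb over all genes called. *Cldn10*, at 87.6 kb, was called lower, and the part of length in this was not tested. Between conditions the list gave 121 pairs of a gene and a cluster higher and 97 lower of 409 with AAI in the control mice (29.6% and 23.7%, against 27.6% and 25.2% over all genes), and 149 and 88 of 416 in the hKLF6 OE mice (35.8% and 21.2%, against 31.6% and 26.2%). Between genotypes it gave 75 higher and 123 lower of 393 without AAI (19.1% and 31.3%, against 22.4% and 27.4%), and 84 and 82 of 413 with AAI (20.3% and 19.9%, against 20.8% and 23.8%).

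**Figure D4:**
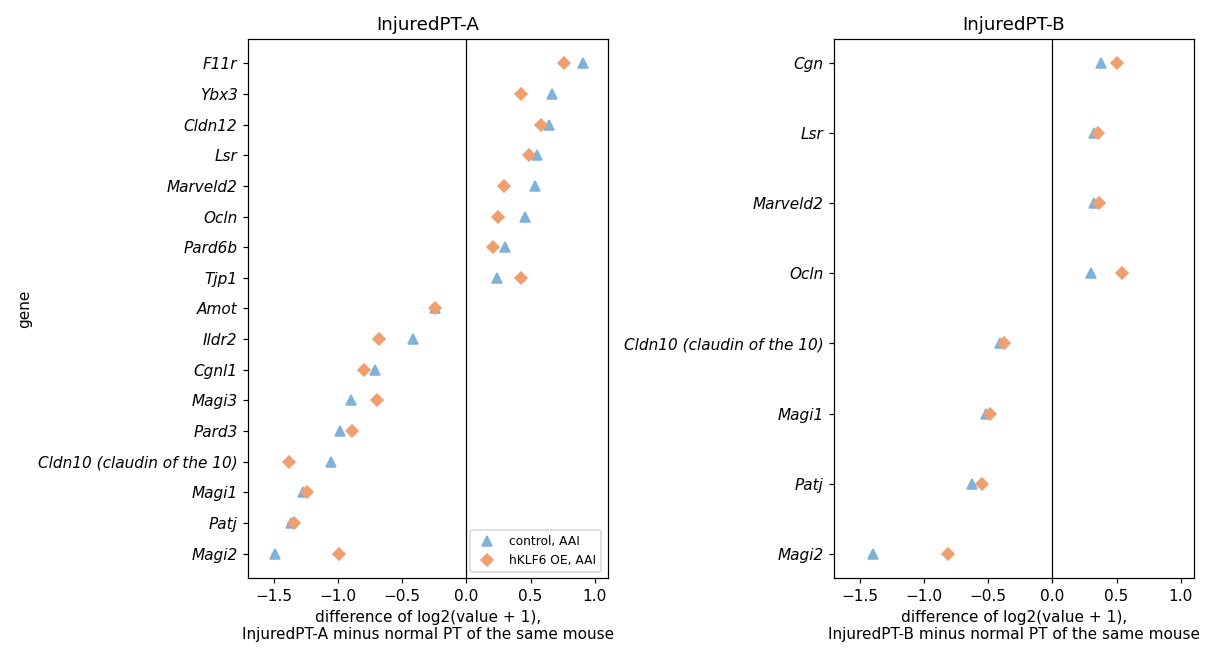
Difference of log2(value + 1) between an injured cluster and the mean of the 5 normal PT clusters of the same mouse, for the reported genes of the 10 claudins and of the tight junction list that were called in both AAI mice. *Cldn10* lies at -1.06 and -1.38 in InjuredPT-A and at -0.41 and -0.38 in InjuredPT-B.

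Across conditions, most comparable values belonged to *Cldn10* and *Cldn2*. Between AAI and none in the control mice, 44 of 230 pairs of a claudin and a cluster could be compared, of which 6 were called higher and 19 lower, against 27.6% and 25.2% of all such pairs of genes and clusters. In the hKLF6 OE mice 48 pairs could be compared, with 7 higher and 21 lower against 31.6% and 26.2%. Pairs of 1 gene are not independent, and *Cldn10* alone gave 11 of the 19 and 13 of the 21. The medians of the compared pairs were -0.13 and -0.15, beside 0.02 and 0.04 over all genes.

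In the normal PT clusters *Cldn10* changed little with AAI. Of the 5 clusters, PT-S3-3 of the control mice was called lower, by 0.30, and PT-S1-S2-2 of the hKLF6 OE mice higher, by 0.22. Of the tested genes there, 18.6% were called lower in the first and 21.2% higher in the second. In PT-S3-3 of the control mice the summed PT-S1-S2 markers went from 83.7 to 28.7 and the PT-S3 markers from 31.8 to 41.3. In the hKLF6 OE mice these went from 61.0 to 25.9 and from 25.1 to 46.3, and *Cldn10* was not called. The part of these markers was not tested. In InjuredPT-A *Cldn10* was called lower with AAI in both genotypes, from 2.42 to 1.24 and from 2.19 to 0.879. The study found the injured clusters almost only in AAI-treated mice. In the vehicle control and hKLF6 OE mice 62.6% and 40.8% of genes were at 0 in InjuredPT-A, against 22.5% and 22.2% with AAI. Its summed PT-S1-S2 markers also fell, from 80.2 to 25.4 and from 70.8 to 39.4, and their part was not tested. Of its tested genes 36.8% and 30.5% were called lower. Outside the proximal tubule *Cldn10* was called lower in both genotypes in DCT, EC-1, CNT, LH-AL-2, MC and Podocytes. In the control mice EC-2, Macrophage and LH-DL were called higher with AAI. The summed PT-S1-S2 markers were lower with AAI in all 16 clusters outside the proximal tubule in the control mice, from a median of 24.4 to 17.2, and their part was not tested. *Cldn2* was called lower in both genotypes in InjuredPT-A, InjuredPT-B and CD_PC, from 0.571 to 0.119 and from 0.629 to 0.0404 in the last. InjuredPT-B had 51.3% and 55.7% of genes at 0 in the vehicle mice, against 27.0% and 29.7% with AAI. Of its tested genes 28.5% and 32.9% were called lower.

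Between hKLF6 OE and control without AAI, 47 pairs could be compared, with 13 higher and 8 lower against 22.4% and 27.4% of all pairs. With AAI 40 could be compared, with 9 higher and 8 lower against 20.8% and 23.8%. *Cldn10* gave 8 of the 13. It was called higher in the hKLF6 OE mouse in LH-AL-1, LH-AL-2, LH-AL-3, CNT, IC-A, IC-B-2, LH-DL and Macrophage, and lower in PT-S3-1, PT-S3-3, InjuredPT-B and DCT_CNT. The vehicle hKLF6 OE mouse had the highest *Cldn10* of the 4 mice in 12 of the 16 clusters outside the proximal tubule, a count made after the values were seen. The median over those clusters was 0.748 in the control mouse, 0.681 with AAI, 1.23 in the hKLF6 OE mouse and 0.551 in the hKLF6 OE mouse with AAI.

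Markers of other segments were read in the same clusters. The summed PT-S1-S2 markers were highest in the vehicle hKLF6 OE mouse in 5 of the 16 clusters and the PT-S3 markers in 1. The summed LH-AL markers were highest there in 9 of 13 clusters outside the limb, with medians of 15.9, 15.1, 20.3 and 16.4 in the 4 mice. *Cldn10* was lower in the AAI-treated than in the vehicle hKLF6 OE mouse in 16 of 16 clusters, and in the AAI-treated than in the vehicle control mouse in 10 of 16. The PT-S1-S2 markers were also lower in 16 of 16 clusters of the hKLF6 OE mice, from a median of 21.1 to 12.5. The part of these markers in the *Cldn10* values was not tested. All these comparisons share mice, and genotype, treatment and animal cannot be told apart.

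**Figure D5:**
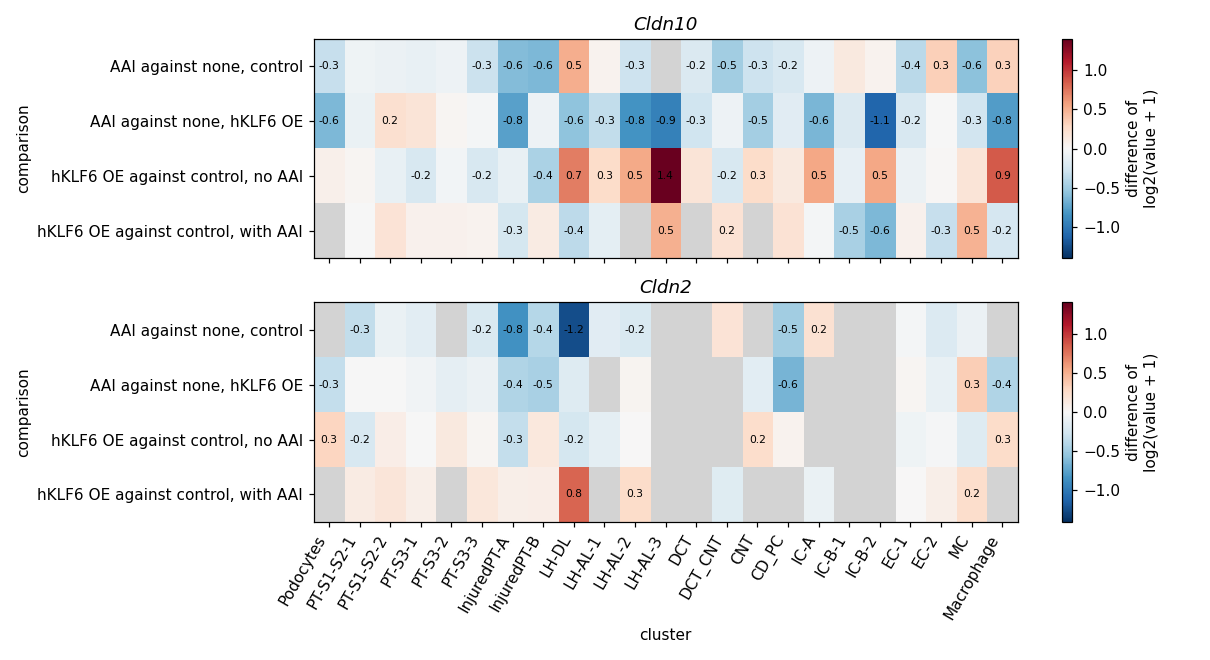
Difference of log2(value + 1) for *Cldn10* (top) and *Cldn2* (bottom) in each cluster and comparison of 2 mice, the second condition named being subtracted. Differences of at least 0.2 are written in and grey marks pairs under the minimum of 0.5. With AAI *Cldn10* was lower in 16 of the 16 clusters outside the proximal tubule in the hKLF6 OE mice and in 10 of 16 in the control mice.

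Genes with the most similar profiles were sought over all 92 columns, as Pearson's r of log2(value + 1). The columns share libraries and clusters and r is a description. *Cldn10* was most like *Nr1h4*, the bile acid receptor FXR (r = 0.91), *A1cf*, an RNA-editing cofactor (0.87), and *Dao*, D-amino acid oxidase (0.86). *Cldn5* was most like *Cdkn1c* (0.91), *Chst1* (0.90) and *Dync1i1* (0.90), each highest in Podocytes. *Cldn19* was most like *Tmem207* (0.89), *Pla1a* (0.85) and *Sim2* (0.84), and *Cldn16* was most like *Shd* (0.82), *Enox1* (0.82) and *Tmem207* (0.81). Spearman's rho over the same columns was 0.89 for *Cldn10* and *Nr1h4*. It was 0.46 for *Cldn5* and *Dync1i1* and 0.32 for *Cldn16* and *Tmem207*, so these likenesses were weaker by rank.

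*Tmem207* lies next to *Cldn16* on chromosome 16, with 20890 bases between them and on the other strand. Its level in LH-AL-2 ran from 8.26 in the control mouse to 11.6 in the vehicle hKLF6 OE mouse, so it did not share the order of the mice seen for *Cldn16*. Its level in LH-AL-1 was lower in each mouse, at 2.21, 3.62, 5.04 and 2.20. *Enox1* in LH-AL-2 was 22.4, 19.3, 8.87 and 16.8, lowest in the vehicle hKLF6 OE mouse as *Cldn16* was. Between the 10 claudins the highest r was that of *Cldn16* and *Cldn19* (0.76), followed by *Cldn2* and *Cldn10* (0.43), and the lowest was that of *Cldn8* and *Cldn10* (-0.44). By Spearman's rho the order of the first pairs changed, with 0.50 for *Cldn16* and *Cldn19* and 0.52 for *Cldn2* and *Cldn10*.

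*Cldn2* was most like *Aadac* (0.76), *Erich4* (0.75) and *Glul*, glutamine synthetase (0.68). The likeness of the sparse genes carries little weight at these levels. *Cldn7* was most like *Fam83b* (0.63), *Pde1c* (0.63) and *Six4* (0.63), and *Cldn8* most like *Ehf* (0.59), *Hoxb3* (0.55) and *Ptpn18* (0.53). *Cldn1*, *Cldn3* and *Cldn4* followed *Tbc1d8* (0.70), *Gm20554* (0.60) and *Corin* (0.75), each highest in the cluster where the claudin had its high value. By Spearman's rho these were 0.24, 0.46 and 0.28. Of the other claudins, 8 were in the table and 2 reached a mean of 0.5 in a cluster, *Cldn12* with 0.738 in InjuredPT-A and *Cldn15* with 0.505 in EC-2.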

How the data were processed

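The deposited table holds 1 value per gene, cluster and mouse, and no nuclei, counts or depths. The authors aligned single nucleus RNA-seq reads to a mouse pre-mRNA reference with Cell Ranger and clustered them with Seurat. They excluded nuclei with under 200 or over 6000 genes or over 10% mitochondrial reads. The deposited values are a normalised signal averaged over the nuclei of a cluster, and each column sums to 10000. Nuclei of all 4 mice were run in 1 batch. Cluster numbers were named in the order of the study's marker lists. Removal of doublets is not given in the sources used here for these nuclei.

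Of 19632 rows, 23 whose names had become dates were left out. Differences used log2(value + 1), a minimum of 0.5 and a threshold of 0.2, and calls in injured clusters needed both AAI-treated mice. All genes were processed together and the rule was tested on simulated data. Genes were named by a rule: all 10 claudins in their 3 highest clusters and in PT, the 3 most similar profiles of each among genes with a mean of 0.5 in a cluster, and the largest rise and fall of the tight junction list in each injured cluster, of which 1 gene is not reported here. The claudins and lists were chosen with earlier results of these data known. Alternatives were a pseudocount of 0.1, a minimum of 2 or none, a threshold of 0.5, centring, the PT-S3 reference, thin clusters removed and mice left out. Python 3.11.15, numpy 2.4.6, pandas 2.3.3 and matplotlib 3.10.9 were used. Annotation was GENCODE and RefSeq on GRCm38, the files' build being mm10.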

Additional observations from a re-analysis of the deposited data

Results flagged for a closer look

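*Cldn10* moved in opposite directions with AAI in the 2 genotypes in 2 clusters, and the difference between them was not tested. In Macrophage it was 0.527 and 0.909 in the control mice without and with AAI, and 1.78 and 0.618 in the hKLF6 OE mice, so that the effect of AAI in hKLF6 OE minus that in control was -1.10 on the log2(value + 1) scale. The LH-AL markers summed there to 14.1, 13.4, 29.0 and 16.4 in the same order, and the PT-S1-S2 markers to 40.5, 30.2, 42.5 and 31.2. Their part was not tested. In LH-DL *Cldn10* was 0.275 and 0.820 in the control mice and 1.09 and 0.412 in the hKLF6 OE mice, a difference of -1.08. The cluster's own markers summed to 10.3, 18.6, 21.2 and 10.9 in the same order. Its podocyte markers summed to 12.1, 14.8, 1.67 and 15.6, and its parietal epithelial markers to 15.2, 14.1, 4.60 and 22.6. The part of this mixture in the *Cldn10* values was not tested. Both clusters had over 50% of genes at 0 in at least 1 mouse.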

How the results depend on the processing

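Counts of claudin and cluster pairs past the threshold depended on the settings, in the order AAI in control, AAI in hKLF6 OE, hKLF6 OE without AAI and hKLF6 OE with AAI. The reported counts were 25, 28, 21 and 17. A minimum of 2 gave 7, 7, 7 and 2, no minimum 39, 52, 47 and 33, and a threshold of 0.5 gave 9, 13, 7 and 6. Leaving out clusters with over 50% of genes at 0 in either mouse gave 16, 18, 13 and 9. A pseudocount of 0.1 gave 32 and 26 in the last 2 comparisons, and centring moved none of the 4 by over 1.5 times. A higher minimum and the loss of clusters let fewer pairs enter and a higher threshold calls fewer of them, and otherwise the cause was not tested. In InjuredPT-A the count of 1 became 2, adding *Cldn2* as higher, with a pseudocount of 0.1 and with the PT-S3 reference, and with the mice taken alone (leave-one-out) it was 1 to 2, *Cldn2* being called in the control mouse alone. In InjuredPT-B it was 1 in each mouse alone and 0 at a threshold of 0.5. *Cldn10* was called lower in both injured clusters under every other alternative run. The count of claudins with the same highest cluster was 3 with any mouse left out and 4 without the thin clusters, which adds *Cldn2* in MC. The fall of *Cldn10* in PT-S3-1 in hKLF6 OE without AAI was -0.23 and became -0.20, just under the threshold, when centred. Outside the proximal tubule the vehicle hKLF6 OE mouse was highest for *Cldn10* in 8 of 12 clusters once the thin ones were left out, an alternative chosen after seeing the data, as was the pseudocount of 0.1 for *Cldn16*, under which 4 of 4 mice stayed higher in LH-AL-2. No paired analysis was possible because each condition has 1 mouse. The depth behind each value is unknown.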
